A study of Mus musculus with 6 samples.

Results

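The miR-130 and miR-301 family was followed in mouse liver as the rows of the miRNA table named mmu-miR-130a, mmu-miR-130b, mmu-miR-301a or mmu-miR-301b, with either arm of the hairpin. These were 8 of the 1039 rows, the -3p and the -5p strand of each of 4 precursors. The samples were the livers of 6 wild type ICR mice aged 30 weeks, 1 small RNA library per mouse, and all 6 mice ate a high-fat diet that had run for 12 weeks before gavage began. For the next 8 weeks 3 mice received JTXK granule, a Chinese herbal formula (J group), and 3 received sterile water (M group). ICR mice are an outbred stock, the mice sequenced were chosen from larger groups, and mice on a normal diet were not analysed here, so the comparison is between treated and untreated mice on the same diet. It asks whether the granule changed the level of these miRNAs in the liver.

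A miRNA is cut from the stem of a hairpin transcript, and either strand of the stem can be loaded into an Argonaute protein. The loaded strand finds messenger RNAs mainly through its seed, bases 2 to 8 from the 5′ end, which pairs with sites in the 3′UTR and lowers the stability and translation of the message. The -3p strands of this family share a seed. They are known to repress Pparg, the nuclear receptor that drives fat cell formation, and miR-130b and miR-301b are also known to repress Abca1, which exports cholesterol from cells. miR-130a is known in endothelial cells for its part in angiogenesis.

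Mature sequences from RefSeq (GRCm38.p6) matched 7 of the 8 members, all but mmu-miR-301b-3p. The -3p strands are shown first because their seed, in capitals, is what makes them a family.
mmu-miR-130a-3p: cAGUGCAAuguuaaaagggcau
mmu-miR-130b-3p: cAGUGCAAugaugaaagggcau
mmu-miR-301a-3p: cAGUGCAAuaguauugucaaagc
The first 2 of these are near copies. Counted from 1 at the 5′ end, mmu-miR-130b-3p differs from mmu-miR-130a-3p at 2 of 22 bases, U11A and A13G, which is an identity of 90.9%. Reads of these 2 miRNAs could be exchanged by a counting step that allows mismatches, and how many mismatches were allowed is not given in the sources used here. mmu-miR-301a-3p differs from mmu-miR-130a-3p at 10 of 22 aligned bases and from mmu-miR-130b-3p at 11, all outside the seed.

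The -5p strands are shown because they have other seeds, again in capitals, and report on the same precursors.
mmu-miR-130a-5p: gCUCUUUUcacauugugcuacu
mmu-miR-130b-5p: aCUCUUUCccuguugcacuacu
mmu-miR-301a-5p: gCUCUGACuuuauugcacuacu
mmu-miR-301b-5p: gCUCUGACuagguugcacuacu
The -5p strands of miR-301a and miR-301b share a seed, while those of miR-130a and miR-130b each have their own. mmu-miR-301b-5p differs from mmu-miR-301a-5p at U10A, U11G and A12G. The complement of the -3p seed, UUGCACU, starts at base 13 in the -5p strands of miR-130b, miR-301a and miR-301b and is absent from that of miR-130a. It occurs in 9 of the 1679 mature mouse miRNA names in the RefSeq table (0.536%).

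The 4 hairpins come from 3 places in the genome (GENCODE vM21, GRCm38). Mir130a lies on chromosome 2 at 84741115 to 84741178, minus strand, and overlaps no other gene. Mir130b (chromosome 16, 17124061 to 17124142) and Mir301b (17124400 to 17124496) lie 257 bases apart on the minus strand, both within an intron of 2610318N02Rik on the same strand. Mir301, the annotated name of the miR-301a gene, lies on chromosome 11 at 87113004 to 87113089, plus strand, in an intron of Ska2 on the same strand. Ska2 encodes a part of the complex that ties kinetochores to spindle microtubules. Apart from the Mir130b and Mir301b pair, no miRNA gene lay within 10 kb of any of them.

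Values are RPM, reads scaled to 1000000 miRNA reads in each library. The libraries held 2626353 to 4314134 miRNA reads, so a single read was worth 0.232 to 0.381 RPM and a level of 3 reads, taken as the lower limit of a library, was 0.695 to 1.14 RPM. Intervals on a single library cover counting error only. A library that stands apart has to be named before the results. M group replicate 1 was at least 4-fold above every other library, on log2(RPM + 1), in 30 of the 1039 rows (2.89%). J group replicate 3 stood above all others by that margin in 1 row and the other 4 libraries in none. By its label code, MX1_3, it also differs from the other M group libraries (MX2_2 and MX2_3), while all J group codes begin with GJ2. What the codes stand for is not given in the sources used here, and with 1 library under that code, the code and the mouse cannot be told apart. Of the 8 family members, 4 were among the 30 rows, and the group comparisons of the members are given with and without that library.

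miR-130a-3p was by far the most abundant member and was at nearly the same level in treated and untreated mice. It ranked 89 of the 762 mouse miRNAs by mean level. It was at 298, 314 and 311 RPM in J group replicates 1 to 3 and at 291, 288 and 364 RPM in M group replicates 1 to 3. M group replicate 3 was the highest of the 6 libraries and the other 5 lay within a narrow range, so that the groups overlapped. The J group mean was 308 ± 8.41 RPM and the M group mean 314 ± 43.0 RPM (SD, n = 3 each). The log2 fold change, J against M, was -0.02 (SE 0.19, 95% interval -0.48 to 0.43, limma, adjusted p = 0.976), where the median of all 548 miRNAs tested was -0.13. Its sign was not fixed, since it became positive under 4 other scalings or tests, without M group replicate 3, and in both count models without M group replicate 1, the largest of these values being 0.22.

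Its other strand, miR-130a-5p, was rare. It had 7, 3 and 5 reads in the J group (1.62, 0.837 and 1.78 RPM) and 8, 5 and 9 reads in the M group (3.05, 1.47 and 2.10 RPM). M group replicate 1 was highest, but M group replicate 2 was below 2 of the J group libraries. The log2 fold change was -0.40 (SE 0.36, 95% interval -1.24 to 0.44, limma, adjusted p = 0.722). The -3p strand made up 99.0% to 99.7% of the miR-130a reads in each of the 6 libraries.

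**Figure D1:**
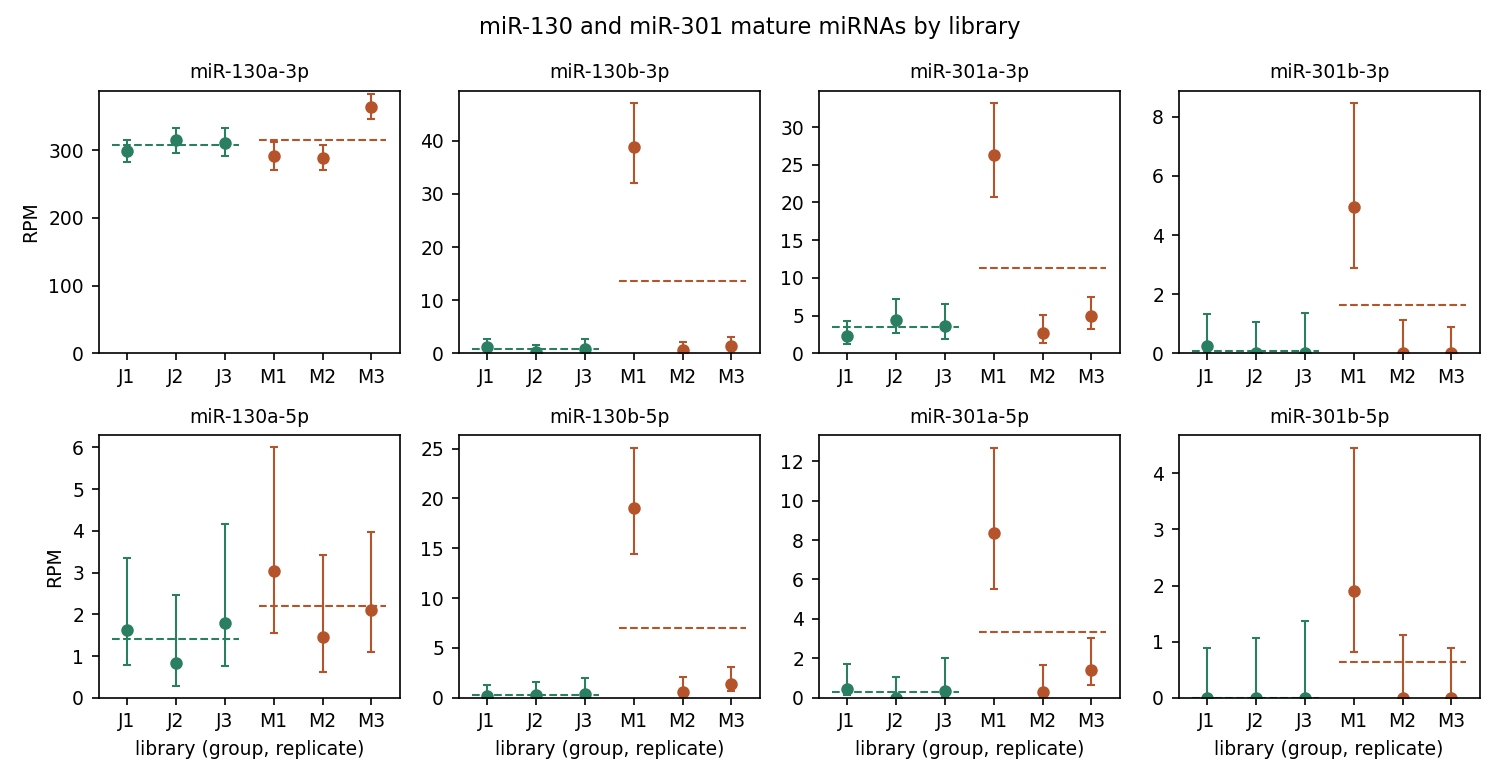
RPM of each of the 8 members in each library (J group green, M group orange), with the 95% Wilson interval of the read count as a bar and the group mean as a dashed line, each panel on its own scale from 0. miR-130a-3p lies between 288 and 364 RPM in all 6 libraries, while for miR-130b and miR-301 strands M group replicate 1 stands apart, at 38.8 RPM for miR-130b-3p against 1.40 RPM in the next highest library.

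miR-130b was close to the limit of detection in 5 of the 6 livers and many times higher in 1 untreated mouse. miR-130b-3p had 5, 1 and 2 reads in J group replicates 1 to 3 (1.16, 0.279 and 0.713 RPM). In the M group it had 102, 2 and 6 reads (38.8, 0.586 and 1.40 RPM). M group replicate 1 was therefore 27.8-fold above the next highest library, M group replicate 3 (exact 95% interval of the ratio 12.3 to 77.5). M group replicate 2 lay within the J group's range, so the groups overlapped.

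miR-130b-5p followed the same order of libraries within the M group. It had 1 read in each J group library (0.232, 0.279 and 0.356 RPM), and 50, 2 and 6 reads in the M group (19.0, 0.586 and 1.40 RPM). M group replicate 1 was 13.6-fold above M group replicate 3 (exact 95% interval 5.84 to 38.9). This was the only member whose J and M libraries did not overlap, 1 of the 7 members tested against 13.5% of the 548 miRNAs tested. Outside M group replicate 1 that separation rests on 1 read against 2 and 6 reads, all but the last within the limit of 3 reads.

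miR-301b, the neighbour of miR-130b on chromosome 16, was seen almost only in the same library. miR-301b-3p had 1, 0 and 0 reads in the J group and 13, 0 and 0 reads in the M group. Its 4.95 RPM in M group replicate 1 (95% Wilson interval 2.89 to 8.47) was 21.4-fold above J group replicate 1, but with 1 read there the exact interval of the ratio ran from 3.21 to 908. miR-301b-5p had 5 reads in M group replicate 1 (1.90 RPM, interval 0.813 to 4.46) and none in the other libraries, at least 1.78-fold above a limit of 3 reads in the library where that limit was highest (1.07 RPM).

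miR-301a, from chromosome 11, was present at a low level in all livers and was also highest in M group replicate 1. miR-301a-3p had 10, 16 and 10 reads in the J group (2.32, 4.47 and 3.56 RPM) and 69, 9 and 21 reads in the M group (26.3, 2.64 and 4.89 RPM). M group replicate 1 was 5.37-fold above M group replicate 3 (exact 95% interval 3.26 to 9.22), whereas M group replicate 2 was below 2 of the J group libraries. miR-301a-5p had 2, 0 and 1 reads in the J group (0.464, 0 and 0.356 RPM) and 22, 1 and 6 reads in the M group (8.38, 0.293 and 1.40 RPM). M group replicate 1 was 6.0-fold above M group replicate 3 (exact 95% interval 2.36 to 18.1).

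The treated and untreated groups were then compared over all 548 miRNAs with a mean above 1 RPM in at least one group, by limma on log2(RPM + 1). The study's thresholds were a log2 fold change beyond 0.3 in either direction with p, before adjustment, below 0.05. Of the 548, 29 passed (5.29%), 21 of them lower in the J group (3.83%), and 0 had a Benjamini-Hochberg adjusted p under 0.05 (0%), where edgeR gave 0 and DESeq2 2. None of the 7 members tested passed the thresholds, and miR-301b-5p was not tested. 4 of the 7 (both miR-130b strands, miR-301a-5p and miR-301b-3p) were tested only because M group replicate 1 lifted the M group mean over the limit.

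For miR-130b-3p the J group mean was 0.717 ± 0.440 RPM and the M group mean 13.6 ± 21.9 RPM (SD, n = 3 each), and the log2 fold change was -1.67 (SE 1.13, 95% interval -4.33 to 0.996, limma, adjusted p = 0.710). For miR-130b-5p it was -1.72 (SE 0.89, 95% interval -3.82 to 0.38, limma, adjusted p = 0.710). miR-301a-3p averaged 3.45 ± 1.08 RPM in treated and 11.3 ± 13.0 RPM in untreated mice (SD, n = 3 each), with a log2 fold change of -0.94 (SE 0.72, 95% interval -2.63 to 0.75). For miR-301a-5p and miR-301b-3p the log2 fold changes were -1.29 (SE 0.71, 95% interval -2.95 to 0.37) and -0.76 (SE 0.72, 95% interval -2.44 to 0.93). These fitted changes depend on the 1 RPM added before the log, which exceeds the level of most of these miRNAs in the J group. With 0.1 or 10 RPM added instead, the log2 fold change was -2.23 or -0.75 for miR-130b-3p, -2.81 or -0.56 for miR-130b-5p, -1.05 or -0.50 for miR-301a-3p, -2.53 or -0.33 for miR-301a-5p and -1.31 or -0.18 for miR-301b-3p, none past the thresholds. With 1 RPM added each interval spans 0, and for both -3p strands the SD of the M group was larger than the difference of the means.

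**Figure D2:**
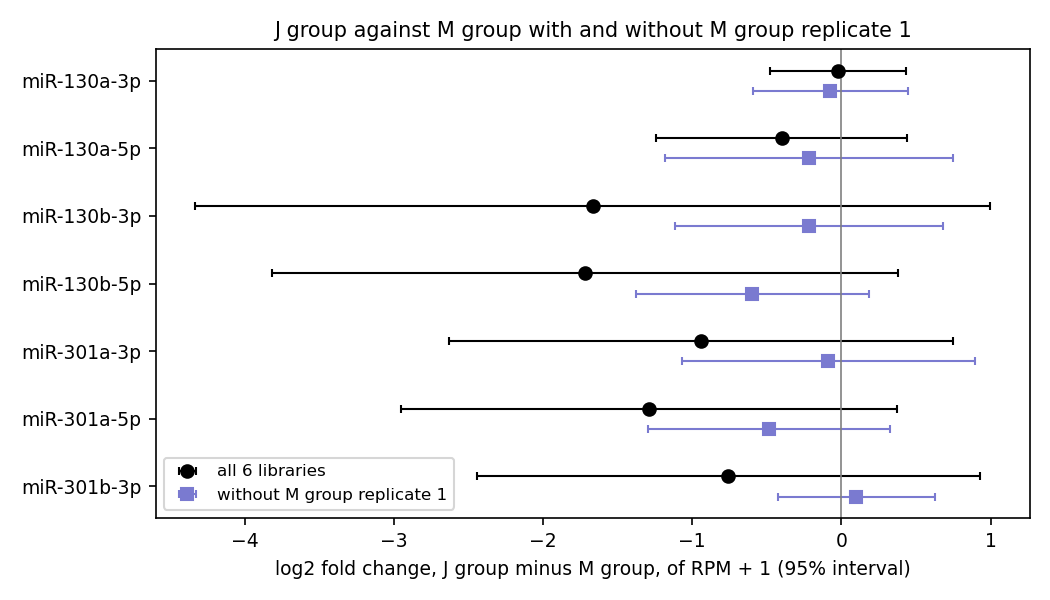
Log2 fold change, J against M, of the 7 members tested, on the log2(RPM + 1) scale, with 95% intervals from limma; circles use all 6 libraries and squares leave out M group replicate 1 and apply no filter on low values. The intervals of all members include 0 in both fits, and without that library the value of miR-130b-3p is -0.22 in place of -1.67.

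Without M group replicate 1, and with no filter so that all 7 could still be fitted (a choice made after the values were seen), the changes shrank. The log2 fold change was -0.22 for miR-130b-3p (95% interval -1.11 to 0.68), -0.60 for miR-130b-5p (-1.38 to 0.18), -0.09 for miR-301a-3p (-1.07 to 0.89), -0.49 for miR-301a-5p (-1.30 to 0.32) and 0.10 for miR-301b-3p (-0.43 to 0.63). Adjusted p ranged from 0.871 to 0.958 over the 7 members (limma), and none of them was called, where 4.08% of 1004 miRNAs were. The M group mean of miR-130b-3p was 0.992 RPM without that library, and that of miR-301a-3p 3.76 RPM.

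The count models treated the same reads differently. edgeR on the whole reads called miR-130b-3p (log2 fold change -3.93), miR-130b-5p (-4.27) and miR-301a-5p (-3.21), 3 of 7 members where it called 8.21% of the 548, each with an adjusted p of 0.568. DESeq2 called miR-130b-5p (-4.45, adjusted p = 0.229) and miR-301a-5p (-3.40, adjusted p = 0.593), where it called 6.57%, and gave a log2 fold change of -4.03 with no p for miR-130b-3p. Every member called by either model was among those tested only because M group replicate 1 lifted the M group mean over the limit. The filter thus favoured such calls, and their number cannot be weighed against the share of all miRNAs. Without M group replicate 1 and with no filter, neither model called a member, where edgeR called 5.28% and DESeq2 2.19% of 1004, and their log2 fold changes were -0.29 and -0.33 for miR-130b-3p, -1.60 and -1.71 for miR-130b-5p, and -1.40 and -1.48 for miR-301a-5p. With M group replicate 2 left out, limma called miR-130b-5p (-2.43) and miR-301a-5p (-1.92), where it called 8.36% of 550. None of the members' calls held after adjustment over all miRNAs.

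The make-up of the family within a library does not depend on how libraries are scaled. miR-130a-3p supplied 98.0%, 98.2% and 97.9% of the reads of the 8 members in the J group, 98.1% in M group replicate 2 and 97.0% in M group replicate 3. In M group replicate 1 it supplied 74.0% (95% Wilson interval 71.2 to 76.5, of 1033 reads). There miR-130b-3p held 9.87%, miR-301a-3p 6.68%, miR-130b-5p 4.84%, miR-301a-5p 2.13%, miR-301b-3p 1.26%, miR-130a-5p 0.774% and miR-301b-5p 0.484%. For each 100 reads of miR-130a-3p there were 0.0888 to 0.389 reads of miR-130b-3p in the other 5 libraries and 13.4 in M group replicate 1.

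**Figure D3:**
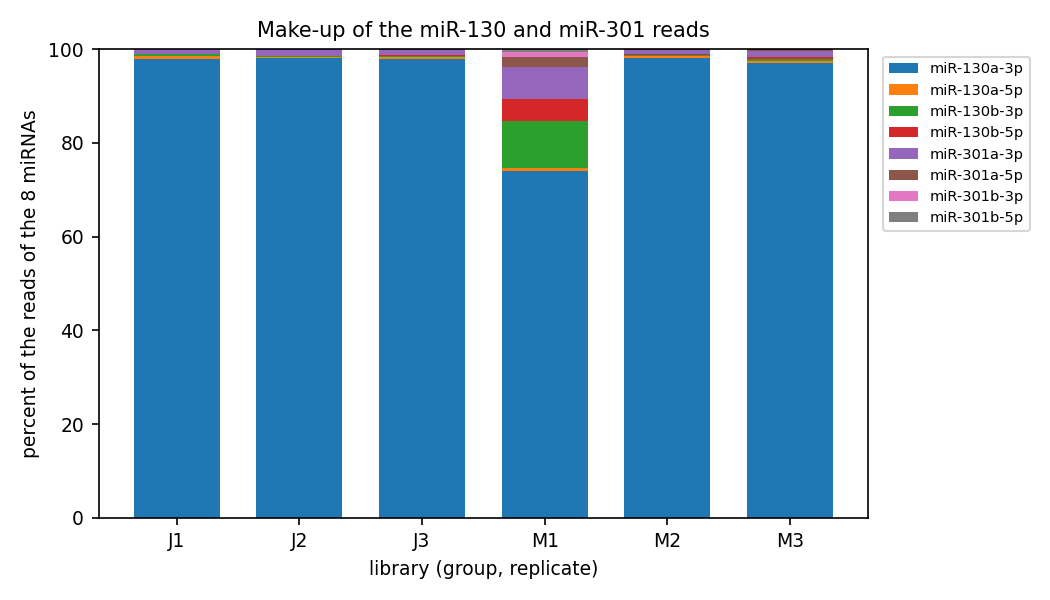
Percent of the reads of the 8 members that each member supplied, one stacked bar per library, from 0 to 100%. miR-130a-3p fills at least 97.0% of the bar in 5 libraries and 74.0% in M group replicate 1, where miR-130b and miR-301a strands make up most of the rest.

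The total of the family was mostly miR-130a-3p. The 8 members summed to 304, 320 and 318 RPM in treated mice and 393, 294 and 375 RPM in untreated mice, or 314 ± 8.50 against 354 ± 52.9 RPM (SD, n = 3). The difference of -40.2 RPM was smaller than the SD of the M group, and was -20.6 RPM without M group replicate 1, -70.2 RPM without M group replicate 2, -13.0 RPM with median-of-ratios scaling and -62.2 RPM with miR-122-5p left out of the total. Leaving miR-130a-3p out, the other 7 members summed to 6.03, 5.86 and 6.77 RPM in treated mice and 102, 5.57 and 11.2 RPM in untreated mice. The 4 -3p strands, of which the seed of miR-301b-3p was not checked for want of its sequence, summed to 302, 319 and 315 RPM in treated mice and 361, 292 and 370 RPM in untreated mice, with M group replicate 2 below all J group libraries.

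Strand use could be read where a precursor had enough reads. In M group replicate 1 the -3p strand was 67.1% of the miR-130b reads (95% Wilson interval 59.3 to 74.1, 102 against 50 reads), 75.8% of the miR-301a reads (66.1 to 83.5) and 72.2% of the 18 miR-301b reads (49.1 to 87.5). In the other libraries the miR-301a share was 77.8% to 100%, over 10 to 27 reads. Outside M group replicate 1, miR-130b had more than 6 reads only in M group replicate 3, with 6 of each strand. So both arms of miR-130b, of miR-301a and of miR-301b were highest in the same library, while miR-130a-3p in that library was below the highest of the others (ratio 0.799, exact 95% interval 0.732 to 0.872).

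**Figure D4:**
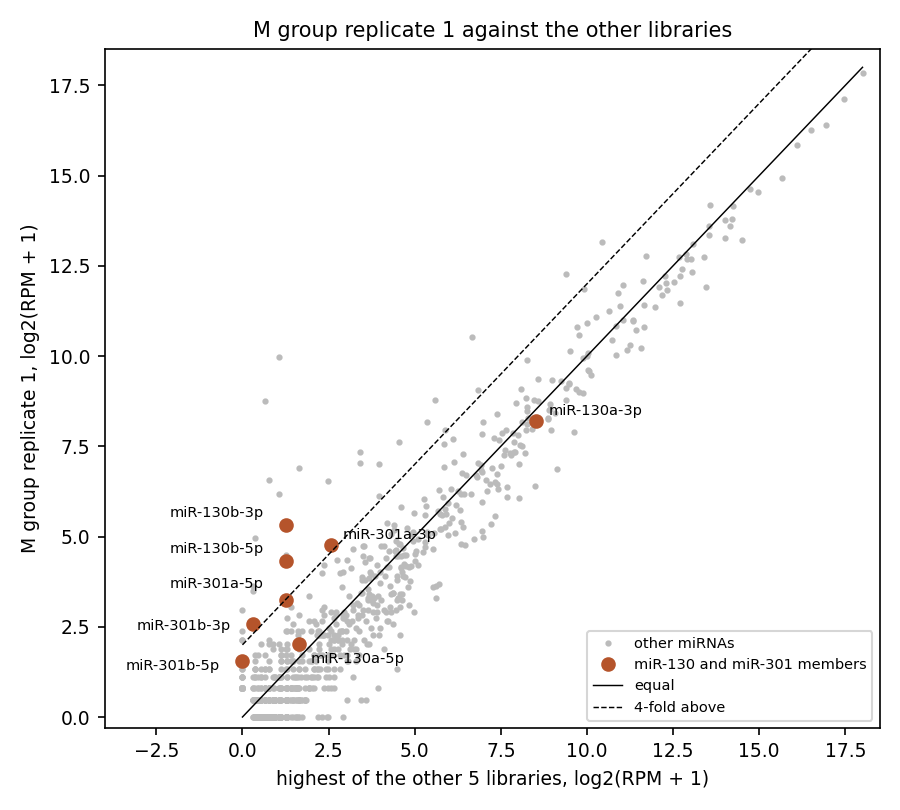
Level of each of the 1039 rows in M group replicate 1 (vertical axis) against the highest of the other 5 libraries (horizontal axis), both as log2(RPM + 1), with the members in colour, a solid line of equality and a dashed line 4-fold above it. 4 members, miR-130b-3p, miR-130b-5p, miR-301b-3p and miR-301a-3p, are among the 30 rows on or above the dashed line, and miR-130a-3p lies below the line of equality.

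The gap between M group replicate 1 and the highest other library, on log2(RPM + 1), was 4.05 for miR-130b-3p (7th largest of all rows), 3.06 for miR-130b-5p, 2.27 for miR-301b-3p and 2.21 for miR-301a-3p. It was 1.97 for miR-301a-5p, 1.54 for miR-301b-5p, 0.39 for miR-130a-5p and -0.32 for miR-130a-3p. The 6 rows with a wider gap than miR-130b-3p were miR-298-5p, miR-296-3p, miR-18b-5p, miR-363-3p, miR-20b-5p and miR-106a-5p. Lists of miRNAs known to mark cell types of the liver were set beside these gaps. The 5 leukocyte miRNAs, all in the table, summed to 4228 RPM in M group replicate 1 and to 595 to 1080 RPM in the other 5 libraries. Both strands of miR-142a, which blood cells make, held nearly all of the excess, with 3709 against 525 to 961 RPM for miR-142a-5p and 444 against 25.3 to 47.0 RPM for miR-142a-3p. The myeloid miR-223-3p was at 25.1 RPM, within the 15.8 to 38.2 RPM of the others, the lymphoid miR-150-5p at 47.2 against 25.8 to 38.7 RPM, and miR-155-5p, which activated leukocytes make, at 3.43 RPM within 1.39 to 7.22 RPM.

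The bile duct list (5 of 5 in the table) summed to 4298 RPM in M group replicate 1 against 950 to 2379 RPM. miR-200a-3p (1921 against 378 to 1033 RPM) and miR-200b-3p (2163 against 416 to 1220 RPM) carried that sum. Both were next highest in J group replicate 3 (1033 and 1168 RPM) and M group replicate 2 (945 and 1220 RPM). In M group replicate 1 miR-141-3p was at 103 RPM within the 74.9 to 110 RPM of the others. miR-200c-3p was at 32.4 RPM against at most 28.4 RPM, and miR-429-3p at 77.7 RPM against 21.3 to 51.0 RPM. The stromal list (4 of 5) summed to 25242 against 12582 to 20214 RPM, and miR-143-3p carried the excess, with 18708 RPM against at most 12166 RPM. Between the groups, 3 of the 4 stromal miRNAs did not overlap, where 13.5% of the 548 miRNAs tested did not, and miR-143-3p did overlap (8162 to 11689 RPM in J and 10443 to 18708 RPM in M libraries). Of the 3, miR-199a-5p was at 638 to 723 RPM in the J libraries and 994 to 1078 RPM in the M libraries, miR-214-3p at 19.3 to 21.3 against 28.7 to 33.3 RPM, and miR-145a-5p at 3763 to 4590 against 5300 to 6964 RPM. These 3 of the 4 passed the thresholds, lower in the J group, where 3.83% of the 548 did (log2 fold changes -0.63, -0.55 and -0.46), with adjusted p of 0.432, 0.710 and 0.710 (limma), and miR-143-3p did not pass (log2 fold change -0.41). The study had listed the same 3 as lower in treated mice from these libraries, so the count is not separate evidence. The hepatocyte list, led by miR-122-5p, summed to 333259 RPM in M group replicate 1 and to 329007 to 379781 RPM in the others. This liver miRNA set was therefore abundant in all 6 libraries. The endothelial miRNA found (1 of 2) was at 4761 RPM within 4166 to 6718 RPM, and the erythroid list (3 of 4) at 5821 RPM within 3868 to 12937 RPM. Groups without overlap were not particular to the stromal list. miR-122-5p was at 208683 to 232872 RPM in J and 233362 to 262490 RPM in M libraries. miR-192-5p of the hepatocyte list went the other way, at 105064 to 126905 against 86806 to 101806 RPM. miR-200c-3p of the bile duct list was at 22.3 to 24.2 against 25.6 to 32.4 RPM. None of these passed the thresholds. The part of these other cell types in the miR-130b and miR-301 values was not tested. In whole liver, fewer cells of a type and less RNA per cell cannot be told apart.

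Other miRNAs that target Pparg or cholesterol transport were read from a list of 8, of which 7 were in the table and tested. None of the 7 passed the thresholds (5.29% of all miRNAs tested did), and their median log2 fold change was -0.36, where that of all 548 was -0.13. The most abundant, miR-148a-3p, which represses Abca1, was at 51059 ± 10798 RPM in treated and 62860 ± 6844 RPM in untreated mice (SD, n = 3 each, log2 fold change -0.32, limma, adjusted p = 0.710). miR-27b-3p, which represses Pparg and Abca1, was at 23430 ± 1684 and 26154 ± 1029 RPM (SD, n = 3, log2 fold change -0.16, limma, adjusted p = 0.710). Its J and M libraries did not overlap (21586 to 24888 against 25529 to 27342 RPM), as for 13.5% of the 548 miRNAs tested. miR-148a-3p and miR-27b-3p were far more abundant than miR-130a-3p. miR-128-3p, singled out after its values were seen, was at 290 RPM in M group replicate 1 and at 25.3 to 39.9 RPM in the other libraries.

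The 3′UTRs of 13 genes known as targets of the family, or as members of the pathways it acts on, were searched for TTGCACT, the DNA complement of the seed, on the sense strand. It was found in 10 of the 13, against 10.1% of 20857 annotated 3′UTRs, although these genes were partly known for such sites and long 3′UTRs hold more matches by length alone. With a following A (TTGCACTA) it was found in 3, Pparg, Acvr1 and Tsc1, against 2.14%. The messenger RNAs were not measured here. Sites of Pparg and Abca1, the genes tied most closely to fat and cholesterol, are shown with the match in capitals, numbered from the start of the annotated 3′UTR, which here includes the stop codon.
Pparg, bases 45 to 51: gttccttctattgaTTGCACTa
Abca1, bases 56 to 62 (the first of 2): agcgaggtcttcctTTGCACTg
The 207-base 3′UTR of Pparg holds its single match in a window where 1.13% of 1419 3′UTRs of similar length hold one. Abca1 has 2 matches in 3159 bases, where 19.2% of 3′UTRs of similar length have at least 1. Csf1, the macrophage growth factor, has 3 in 2114 bases (13.1%). Tgfbr2, a receptor for TGF-beta, has 1 match where 37.2% of 3′UTRs of its length have one. None was found in Ppargc1a, Tgfbr1 or Smad4, which says only that these letters are not in the annotated window.

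The seed itself is carried by 7 of the 1738 mature mouse miRNA entries in RefSeq. 3 of the 7 are members, and of the other 4 only mmu-miR-6389 was in the table, with 2 reads in 1 library (J group replicate 3). mmu-miR-6341, mmu-miR-721 and mmu-miR-130c were not analysed here. All but 2 of the reads that could be assigned to the seed therefore came from family members, most of them from miR-130a-3p.

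The miRNAs most like miR-130a-3p over the 6 libraries, by the root mean square difference of log2(RPM + 1) after centring each on its mean, were miR-10a-5p (0.0773), miR-26b-5p (0.0779) and miR-30e-3p (0.0798), of 137 miRNAs above 100 RPM. No other member had a mean above 10 RPM over the 6 libraries.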

How the data were processed

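Liver small RNA was sequenced in 3 J group and 3 M group mice, grouped by their labels. The authors cleaned the reads, matched the distinct ones to Rfam and to miRBase, added predicted miRNAs, and deposited RPM, in which each count is divided by the library's miRNA total. The submitters' processing notes list the mouse build mm9, and positions here are from GENCODE vM21 and RefSeq GRCm38.p6, matched by name. Every value was a whole multiple of the RPM of 1 read (100% within 0.001 of a read), so whole reads were recovered. The aligner and its mismatch setting are not given in the sources used here.

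limma 3.58.1 in R 4.3.3 (lmFit, eBayes with trend, two-sided) was fitted to log2(RPM + 1) of all 548 miRNAs with a mean above 1 RPM in at least one group, without covariates. Benjamini-Hochberg adjustment was over all 548. edgeR 4.0.16 and DESeq2 1.42.0 on whole reads, other added values, filters and scalings, a replicate term and each library left out were alternatives. Scripts were tested on simulated data. Intervals on reads are 95% Wilson intervals, and ratios of reads have exact intervals. Python 3.11.15, pandas 2.3.3, scipy 1.17.1 and matplotlib 3.10.9 were used.

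The text names all members, miRNAs with the same seed or within 10 kb, the 3 miRNAs most like each member with a mean above 10 RPM over all libraries, and a list of Pparg and cholesterol miRNAs by counts, with its 2 most abundant. Cell type markers come from lists. miR-128-3p and the 6 miRNAs with a wider gap than miR-130b-3p were named after their values were seen. Members and lists were chosen with earlier results of these data known. The mice of a group are separate animals, and each library was made once. Some target genes are not reported here.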

Additional observations from a re-analysis of the deposited data

How the results depend on the processing

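The number of miRNAs past the thresholds was 29, and 45 with edgeR. Without M group replicate 1 and with no filter it was 53 with edgeR, 11 of them with an adjusted p under 0.05 and no member among the 53. It ranged from 21 to 46 with each library left out in turn, the highest being without M group replicate 2. Scaling moved the split of higher and lower calls in the J group, from 8 higher and 21 lower to 18 and 14 with median-of-ratios scaling and 20 and 11 with quantile normalization. With edgeR, which changes the model as well as the scaling, it was 18 and 27. The median log2 fold change of all miRNAs tested was -0.13, -0.03, 0.08 and -0.02 in these 4 fits. For miR-130a-3p the log2 fold change of -0.02 became 0.088 with median-of-ratios scaling, 0.22 with quantile normalization, 0.074 with edgeR and 0.082 with DESeq2, 0.048 and 0.0051 with edgeR and DESeq2 without M group replicate 1 and with no filter, and ran from -0.080 to 0.087 with each library left out. For miR-130b-3p it passed the thresholds with edgeR (-3.93) and ran from -2.54 to -1.47 with libraries left out. For miR-130b-5p it passed with edgeR (-4.27), DESeq2 (-4.45) and without M group replicate 2, with a range of -2.43 to -1.69. For miR-301a-5p it passed with edgeR (-3.21), DESeq2 (-3.40) and without M group replicate 2, with a range of -1.92 to -1.13. For miR-301b-3p, which then rests on 1 read, it was 0.10 with limma, 1.95 with edgeR and 1.17 with DESeq2 without M group replicate 1 and with no filter. It ran from -1.19 to -0.71 with each of the other 5 libraries left out, and was -3.44 with edgeR and -3.84 with DESeq2 on all libraries. The fits without M group replicate 1 and with no filter were chosen after the data were seen. For miR-301a-3p the range with libraries left out was -1.54 to -0.09 and no alternative changed its sign or passed the thresholds. The cause of these shifts was not tested. Without M group replicate 1, or with a filter at 10 RPM, 3 members were tested, so these ranges leave out that library for the other 4. The replicate block gave 27 calls and none among the members, with miR-130b-3p again at -1.67. Same-numbered libraries deviated from their group means with correlations of 0.045, 0.058 and -0.006, and libraries with unlike numbers with -0.24 to 0.16. The numbers thus gave no sign of pairing, though a check on so few libraries cannot exclude it.

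Depth limits the rare members. In the J group, miR-130b-5p, miR-301a-5p and both miR-301b strands never exceeded 3 reads in a library, so a lower level there was not detectable. miR-301a-3p, at 9 to 69 reads, and miR-130a-3p, at 764 to 1564 reads, were measured more firmly.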
